A study of Mus musculus with 25 samples.

Results

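The blood-retina barrier genes described here were 10 genes chosen by symbol: Cldn5, Ocln, Lsr, Mfsd2a, Slc2a1, Abcb1a, Abcg2, Slco1a4, Slco1c1 and Plvap. They were 10 of the 18440 genes listed in all 5 expression tables, and all 10 were among the 13117 genes with enough signal to test. The libraries were bulk RNA-seq of whole retina, with cornea and lens removed, from wild-type C57BL/6J mice at postnatal day 30. Each compound was injected into the vitreous of both eyes as 1 µL of a 10 µM solution. The compounds were tunicamycin, which blocks N-linked glycosylation and so causes endoplasmic reticulum stress, AA147, an activator of the stress sensor ATF6, and Ceapin-A7, an inhibitor of ATF6. Each compound group had 5 libraries. There were also 2 vehicle sets of 5 libraries, labelled PBS but described in the protocol as saline with 0.05 to 0.1% DMSO. AA147 was compared with vehicle set 1, and tunicamycin and Ceapin-A7 with vehicle set 2, because those groups were deposited with the same gene list. The last pair of comparisons therefore shares its controls. The columns of the 3 compound groups gave a collection time of 24 h. The vehicle columns gave none, and the series also names 3 and 7 days, so compound and collection time cannot be told apart. Nothing in the labels ties a library to its own animal, so p-values measure only the spread between these libraries, which may be technical.

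The inner blood-retina barrier is formed by the endothelial cells of the retinal vessels, supported by pericytes and glia, and the outer barrier by the retinal pigment epithelium. Barrier endothelium seals its cell contacts with tight junctions, keeps vesicular transport low, and carries nutrients in and drugs out through dedicated transporters. Norrin from Müller glia, acting through the receptor Frizzled-4 and beta-catenin, induces and maintains this state and keeps the fenestration gene Plvap low.

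Across the 25 libraries, between 12582 and 12870 genes reached 1 FPKM, and no library pair had identical values. Depth, estimated from the step size of low FPKM values, ranged from 15.28 to 25.4 M fragments with a median of 23.56 M. The estimate took 250 bases of each transcript as unable to start a fragment. Scaled low values lay on average 0.13 to 0.19 from whole counts, so these depths are approximate. The vehicle sets differed from each other at 46.8% of tested genes (limma, adjusted p under 0.05), so levels are compared within a set wherever possible. The 4 Y-linked genes measured, all called higher with tunicamycin, were near 0 in 4 of the 5 libraries of vehicle set 2, in 2 of 5 for AA147 and for Ceapin-A7, and in none for tunicamycin or vehicle set 1. Markers of retinal neurons were present in every library, and none was called for any compound against its vehicle set.

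In vehicle-treated retina the members spanned a wide range of levels. In vehicle set 2, Slc2a1, the glucose transporter GLUT1, was at 113 ± 15.6 FPKM (SD, n = 5), at the 95.7th percentile of tested genes. Cldn5, the main claudin of endothelial tight junctions, was at 15.9 ± 2.86 FPKM, at the 58.3rd percentile. The remaining 8 members had means between 1.82 FPKM (Ocln) and 7.90 FPKM (Slco1a4). Ocln stood at the 9.18th percentile. At the median estimated depth of all libraries, Mfsd2a, the member with the fewest fragments, was counted by about 121 fragments in vehicle set 2 and 66 with tunicamycin. The counting error was 9.08% and 12.3%. Tunicamycin libraries 4 and 5 were estimated at 18.76 and 17.64 M fragments, below that median, so their counting error would be larger. In whole-retina RNA, fewer endothelial cells and less RNA per cell cannot be told apart.

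With tunicamycin 5 of the 10 members were lower than in vehicle set 2 and none was higher (limma, adjusted p under 0.05). The members that fell were the junction genes Cldn5 and Lsr, the lipid transporter Mfsd2a, and the organic anion transporters Slco1a4 and Slco1c1. Among all tested genes, 8.7% were called, 2.81% lower and 5.89% higher. The 10 members had a median log2 change of -0.33, against 0.01 over all tested genes. The members were chosen with earlier results of these data known, so these shares and medians do not test them as a set. Changes are given as differences of log2(FPKM + 1), on which folds of weakly expressed genes come out too small.

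To show the region upstream of the start site for the most lowered members and for one that was not lowered, the windows from 250 bases before to 50 after the annotated start are printed below for Cldn5 (chr16:18776597-18776896, plus strand), Slco1c1 (chr6:141524104-141524403, plus strand) and Slc2a1 (chr4:119108495-119108794, plus strand), from RefSeq on GRCm38.p6, which is not the build named in the submitters' processing notes (GRCm39). Capitals mark matches to the motifs searched for.
Cldn5: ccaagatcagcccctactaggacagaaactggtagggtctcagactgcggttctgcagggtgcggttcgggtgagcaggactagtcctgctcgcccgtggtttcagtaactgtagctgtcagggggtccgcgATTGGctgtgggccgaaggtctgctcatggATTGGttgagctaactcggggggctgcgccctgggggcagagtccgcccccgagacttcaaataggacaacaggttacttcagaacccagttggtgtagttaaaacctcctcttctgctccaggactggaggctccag
Slco1c1: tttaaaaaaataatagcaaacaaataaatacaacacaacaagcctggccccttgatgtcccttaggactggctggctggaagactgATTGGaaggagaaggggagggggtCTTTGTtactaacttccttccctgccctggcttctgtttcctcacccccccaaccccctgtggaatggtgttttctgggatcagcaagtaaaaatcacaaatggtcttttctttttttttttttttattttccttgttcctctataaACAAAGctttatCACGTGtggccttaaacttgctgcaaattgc
Slc2a1: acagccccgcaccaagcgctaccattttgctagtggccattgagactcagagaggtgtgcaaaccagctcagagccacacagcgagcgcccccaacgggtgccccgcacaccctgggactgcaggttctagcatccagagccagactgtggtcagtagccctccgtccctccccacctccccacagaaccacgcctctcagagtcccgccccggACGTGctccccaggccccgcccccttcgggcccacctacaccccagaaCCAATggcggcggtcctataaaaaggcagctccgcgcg
RefSeq held windows for 9 of the 10 members. The motifs, searched on both strands, were the stress elements ERSE and ERSE-II, given by name, and the UPRE core (TGACGTGG), CRE (TGACGTCA), the TCF/LEF site ATCAAAG, the FOX site GTAAACA, the SOX site ACAAAG, the ETS site CCGGAA, the CCAAT box and the ACGTG core. The last pair was added after the windows had been seen. The CCAAT box is contained in ERSE and, read on the other strand as ATTGG, in ERSE-II, and the ACGTG core in the UPRE core. The capitals show a CCAAT box in all 3 printed windows, and the ACGTG core in Slco1c1 and Slc2a1 but not in Cldn5. Slco1c1 also holds the SOX site on both strands. These genes have 12 windows, because Abcg2 has 3 and Ocln 2. Of the 12 windows, 7 held a CCAAT box, which 37.4% of all 32851 windows hold. The ACGTG core was in 3 of the 12 (19.6% of all windows) and the SOX site in 2 (18.7%). None of the 12 held ERSE (0.119% of all windows), ERSE-II (0.037%), the UPRE core (0.676%) or the TCF/LEF site (3.73%). These are letter matches in a window of 300 bases and say nothing of factor binding.

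**Figure D1:**
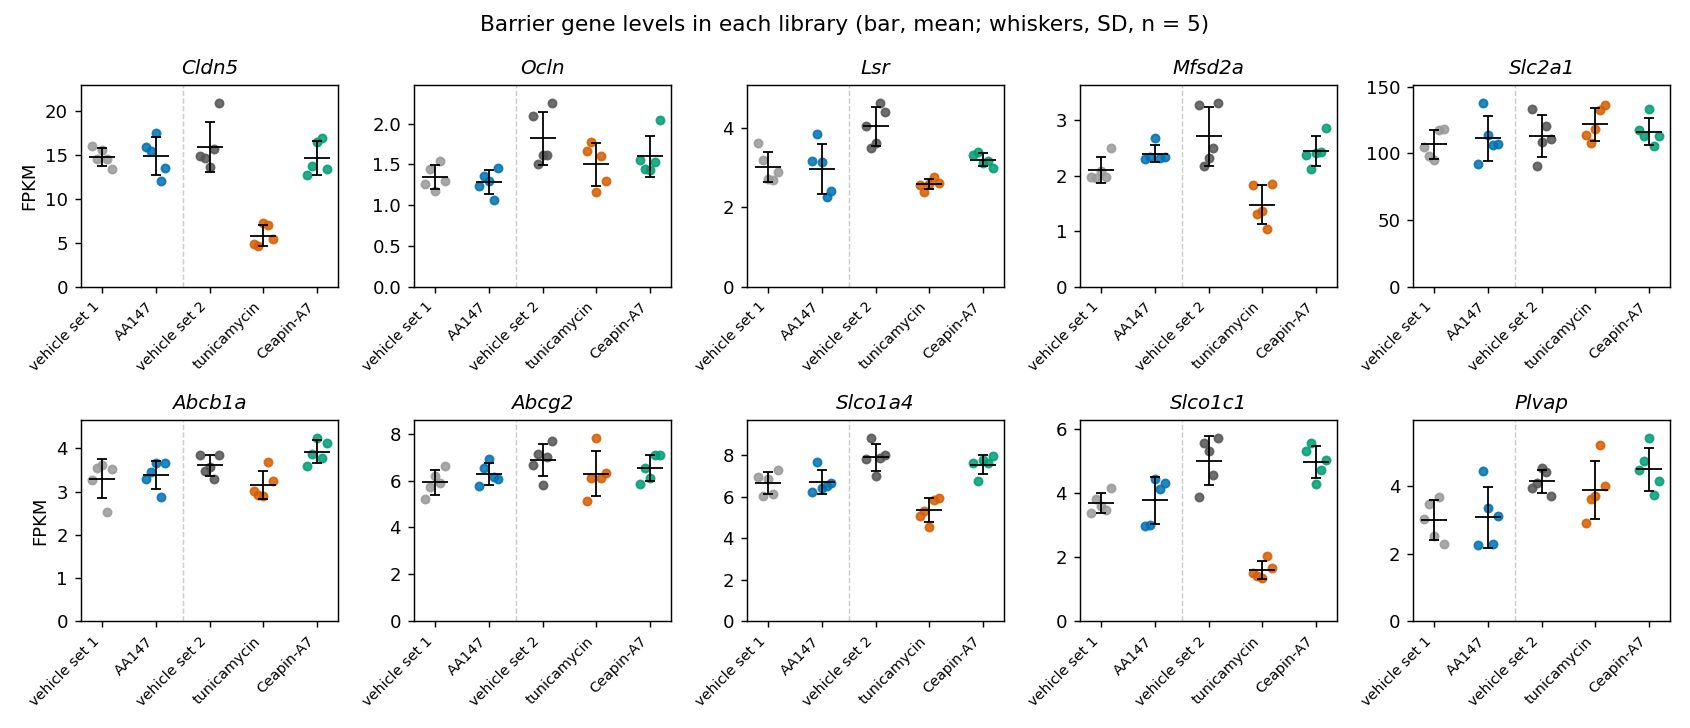
FPKM of each of the 10 members in every library (points) with the group mean and SD, for the 5 groups of 5 libraries. Cldn5 and Slco1c1 sit below every vehicle and Ceapin-A7 library with tunicamycin, and Slc2a1 overlaps between all groups.

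Of the 3 tight junction genes, Cldn5 and Lsr were called lower and Ocln was not. Cldn5 stood at 14.9, 14.6, 13.6, 15.7 and 20.9 FPKM in the 5 libraries of vehicle set 2. With tunicamycin it stood at 4.81, 4.62, 7.29, 7.02 and 5.38 FPKM. Every tunicamycin library was below every vehicle library, and the group mean moved from 15.9 ± 2.86 to 5.82 ± 1.25 FPKM (SD, n = 5). The change was -1.32 ± 0.12 (SE) with a 95% interval of -1.56 to -1.07 (limma, adjusted p = 8.54e-08). Lsr, the angulin that builds tricellular junctions where 3 cells meet, read 4.04, 3.50, 3.62, 4.62 and 4.41 FPKM in vehicle set 2. With tunicamycin Lsr read 2.56, 2.39, 2.59, 2.75 and 2.62 FPKM, again with no overlap. Lsr fell by 0.49 on the log2 scale (interval -0.67 to -0.31, limma, adjusted p = 0.00112). Measured against vehicle set 1, where Lsr was lower, the tunicamycin value differed by -0.16 and was not called (adjusted p = 0.119). Exons of Lsr overlap 2 genes on the opposite strand, with 946 of 2172 exon bases shared with the larger overlap. Abcb1a (553 of 5480 bases) and Slc2a1 (105 of 3506) also overlap an opposite-strand gene. The sources used here do not say whether counting used strand. Ocln, the gene of the junction protein occludin, did not pass the test: it stood at 1.51 to 2.25 FPKM in vehicle set 2 and 1.16 to 1.78 with tunicamycin, a difference of -0.17 (interval -0.35 to 0.00, adjusted p = 0.208).

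Of the nutrient transporters, Mfsd2a was called lower and Slc2a1 was not. Mfsd2a, which carries lysophosphatidylcholine lipids and keeps transcytosis low in barrier endothelium, read 3.26, 2.18, 2.31, 2.49 and 3.30 FPKM in vehicle set 2. With tunicamycin it read 1.83, 1.30, 1.37, 1.03 and 1.84 FPKM, below every vehicle library. The change was -0.58 ± 0.09 (SE, interval -0.78 to -0.39, limma, adjusted p = 0.000367). With only the 10 libraries of the 2 groups in the fit, Mfsd2a kept its change and missed the threshold (adjusted p = 0.0658). Slc2a1 stood at 133, 90.6, 109, 120 and 111 FPKM in vehicle set 2 and at 114, 108, 118, 132 and 137 FPKM with tunicamycin. Those groups overlapped, and the difference of 0.11 (interval -0.09 to 0.32) was not called (adjusted p = 0.514). Slc2a1 is also made by other retinal cells, so whole-retina levels do not isolate its endothelial part.

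The organic anion transporters fell and the efflux pumps did not pass the test. Slco1c1, which carries thyroxine across brain and retinal capillaries, read 3.89, 5.57, 5.32, 4.57 and 5.72 FPKM in vehicle set 2. With tunicamycin Slco1c1 read 1.51, 1.41, 1.34, 2.05 and 1.66 FPKM, so that its highest tunicamycin library lay below its lowest vehicle library. The change was -1.21 ± 0.10 (interval -1.42 to -1.003, limma, adjusted p = 2.04e-08). Slco1a4, a transporter of organic anions and drugs, read 7.81, 8.82, 7.01, 7.88 and 7.98 FPKM in vehicle set 2. With tunicamycin it read 5.09, 5.29, 4.54, 5.85 and 5.94 FPKM, also without overlap. Slco1a4 fell by 0.49 (interval -0.63 to -0.35, limma, adjusted p = 4.74e-05), and 2.73% of its 50-base words also occur in the related gene Slco1a5. Abcb1a, the gene of the efflux pump P-glycoprotein, differed by -0.15 (interval -0.30 to -0.0044) with an unadjusted p of 0.044 and an adjusted p of 0.188. Of its 50-base words, 17.0% occur in the paralog Abcb1b, so reads of those stretches could be split between them. Abcg2, the efflux pump BCRP, stood at 5.83 to 7.67 FPKM in vehicle set 2 and 5.13 to 7.81 FPKM with tunicamycin, a difference of -0.11 (interval -0.28 to 0.05, adjusted p = 0.394).

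Plvap, the component of fenestral diaphragms that barrier endothelium keeps low, did not pass the test. Whole-retina levels do not isolate the part of it that comes from barrier endothelium. Plvap read 3.96, 4.09, 4.54, 4.41 and 3.72 FPKM in vehicle set 2 and 2.90, 3.62, 3.70, 5.23 and 4.02 FPKM with tunicamycin. The tunicamycin libraries lay on both sides of the vehicle range, and the difference was -0.09 (interval -0.36 to 0.18, adjusted p = 0.728). Its sign was not stable: it was 0.29 against vehicle set 1 (adjusted p = 0.0668), 0.10 against both vehicle sets (0.504), and 0.20, 0.06 and 0.16 with the pigment epithelium, endothelial and pericyte list means as covariates (adjusted p = 0.275, 0.875 and 0.665). Against vehicle set 1, Ocln (0.09, adjusted p = 0.378) and Abcg2 (0.07, adjusted p = 0.486) also changed sign, and neither was called.

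Counted by libraries, 5 members had every tunicamycin library below every vehicle library and none the reverse, where 1.24% and 2.81% of tested genes did so. Leaving out any single library of the pair kept all 5 calls. The 5 calls also held when the level of Y-linked genes entered the fit as a covariate. The changes were then -1.46 for Cldn5, -1.20 for Slco1c1, -0.64 for Lsr, -0.62 for Mfsd2a and -0.49 for Slco1a4. Y-linked level itself differed between these groups, at a mean log2 of 3.75 with tunicamycin and 0.80 in vehicle set 2. That fit therefore cannot fully separate Y-linked level from tunicamycin.

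**Figure D2:**
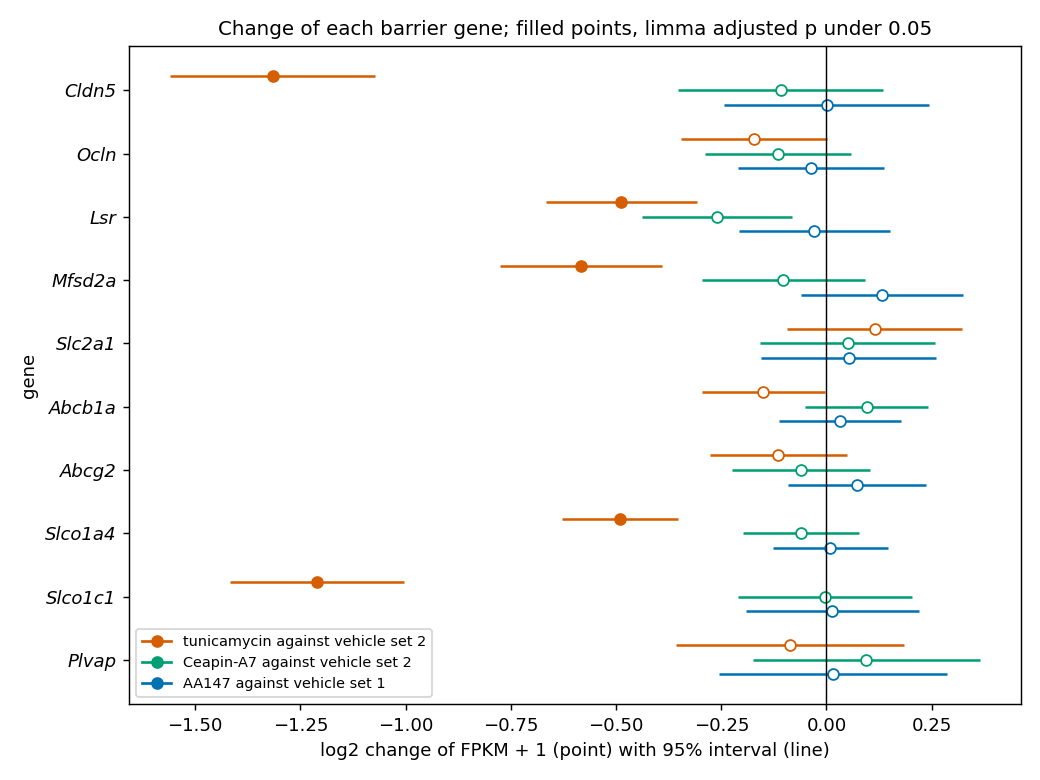
Log2 change of each member on the log2(FPKM + 1) scale with its 95% interval, for each compound against its own vehicle set. For tunicamycin the intervals of Cldn5, Slco1c1, Mfsd2a, Slco1a4 and Lsr lie below 0 and their genes were called. The intervals of Abcb1a for tunicamycin and of Lsr for Ceapin-A7 also lie below 0, without a call. For AA147 and Ceapin-A7 no member was called.

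No member was called with AA147. Cldn5 stood at 16.04, 14.5, 15.5, 14.5 and 13.4 FPKM in vehicle set 1 and at 15.9, 15.4, 17.5, 12.1 and 13.5 FPKM with AA147. Slco1c1 stood at 3.39, 3.82, 3.59, 3.49 and 4.15 FPKM in vehicle set 1 and at 2.97, 3.00, 4.43, 4.14 and 4.32 FPKM with AA147. For both genes the groups overlapped. No member had groups that did not overlap, which 0.206% of tested genes showed lower and 0.45% higher. Over the 10 members the differences ran from -0.04 for Ocln to 0.13 for Mfsd2a, the latter with an interval of -0.06 to 0.33. The widest interval, that of Plvap, ran from -0.25 to 0.29. No member reached an unadjusted p of 0.05, and the call share over all genes was 0% (0 of 13117 with limma, 246 at an unadjusted p under 0.05).

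Ceapin-A7 likewise gave no call among the members or among the 13117 genes (0%), with 1615 genes at an unadjusted p under 0.05. The member that came closest was Lsr, with 3.32, 3.39, 3.11, 3.17 and 2.98 FPKM. Every one of these lay below every library of vehicle set 2, which 0.48% of tested genes showed, with 0.968% in the other direction. Its difference was -0.26 (interval -0.44 to -0.08), with an unadjusted p of 0.0063 and a limma adjusted p of 0.304. Cldn5 stood at 12.7, 13.7, 16.5, 16.9 and 13.4 FPKM and Slco1c1 at 5.31, 5.55, 4.29, 4.71 and 5.02 FPKM with Ceapin-A7, and both overlapped vehicle set 2. The remaining 9 members differed from vehicle set 2 by -0.11 to 0.10.

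Set directly against Ceapin-A7, the other compound of the same gene list, tunicamycin was lower at 5 members and higher at none, where 13.3% of genes were called, 4.48% lower and 8.83% higher. Cldn5 differed by -1.21 (interval -1.45 to -0.96, limma, adjusted p = 2.79e-07) and Slco1c1 by -1.21 (adjusted p = 2.14e-08). Mfsd2a differed by -0.48 (adjusted p = 0.00188), Slco1a4 by -0.43 (adjusted p = 0.000207) and Abcb1a by -0.25 (adjusted p = 0.0239). Abcb1a stood at 3.60, 3.86, 4.24, 3.78 and 4.13 FPKM with Ceapin-A7 and at 3.02, 2.93, 2.90, 3.69 and 3.24 FPKM with tunicamycin, with 1 tunicamycin library inside the Ceapin-A7 range. Its call was lost without tunicamycin library 1 (adjusted p = 0.0641) or 2 (0.0593), without Ceapin-A7 library 3 (0.0616) or 5 (0.0556), and with only those groups in the fit (0.0526). It was also lost with the pigment epithelium list mean (-0.18, adjusted p = 0.254) or the endothelial list mean (-0.19, adjusted p = 0.115) as a covariate. Lsr differed by -0.23 and was not called (adjusted p = 0.0807), although its libraries did not overlap. Lsr was called with only those groups in the fit (adjusted p = 0.0332), after quantile normalization (0.0368) and with Y-linked level as a covariate (-0.30, adjusted p = 0.0197). Groups did not overlap at 5 members, all lower with tunicamycin (Cldn5, Slco1c1, Mfsd2a, Slco1a4 and Lsr), against 2.74% of tested genes lower and 6.73% higher. With the pericyte list mean, described below, as a covariate, 3 members lost their calls against Ceapin-A7. Mfsd2a (-0.43, adjusted p = 0.186) and Slco1a4 (-0.41, adjusted p = 0.0687) stayed near their differences without the covariate, while Abcb1a moved from -0.25 to -0.06 (adjusted p = 0.804).

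Relative to each compound's own vehicle set, the tunicamycin change was below the AA147 change at 4 members, where 1.04% of genes were called, 0.396% lower and 0.64% higher. These were Cldn5 (-1.32, limma, adjusted p = 4.8e-05), Slco1c1 (-1.22, adjusted p = 1.3e-05), Mfsd2a (-0.72, adjusted p = 0.00446) and Slco1a4 (-0.50, adjusted p = 0.00514), while Lsr differed by -0.46 (adjusted p = 0.0694). With Y-linked level as a covariate Slco1a4 lost this call with the same difference (-0.50, adjusted p = 0.0627) and Lsr gained it (-0.68, adjusted p = 0.0113). With the pericyte covariate Mfsd2a (-0.68, adjusted p = 0.0532) and Slco1a4 (-0.49, adjusted p = 0.0525) missed the threshold with differences close to those without it. Lsr was also called after quantile normalization (adjusted p = 0.0277) and without tunicamycin library 3 (adjusted p = 0.0424), AA147 library 4 (0.0265), vehicle set 1 library 1 (0.0498) or vehicle set 2 library 2 (0.0482).

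The vehicle sets differed at 6 members, all higher in set 2: Plvap by 0.37, Slco1c1 by 0.35, Lsr by 0.33, Ocln by 0.26, Mfsd2a by 0.25 and Slco1a4 by 0.22 (limma, largest adjusted p = 0.0303). Between these sets, which were deposited with different gene lists, 26.3% of all genes were called higher and 20.5% lower.

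The endothelial marker genes moved in both directions with tunicamycin. Of 18, 5 rose, 6 fell and 7 were not called, with a median change of -0.18, and none of the 18 was at 0 in any library. Robo4, an endothelial guidance receptor, rose from 1.33 to 3.83 FPKM (1.06), while the surface antigen Ly6c1 fell from 20.1 to 3.30 FPKM (-2.31). Summed over the list, the level ran from 131 to 168 FPKM with tunicamycin and from 159 to 212 FPKM in vehicle set 2. The sum is weighted to the most abundant genes, so it is not an even measure of the list. Podxl and Kdr had the highest mean log2 levels over the 25 libraries, 5.85 and 5.19. Relative to the mean of this list in the same library, Cldn5 differed by -1.15 and Slco1c1 by -1.05 on the log2 scale, with no overlap between groups. Slco1a4 (-0.33) and Lsr (-0.32) also did not overlap, and Mfsd2a (-0.42) did. With the list mean as a covariate in the fit all 5 calls held.

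**Figure D3:**
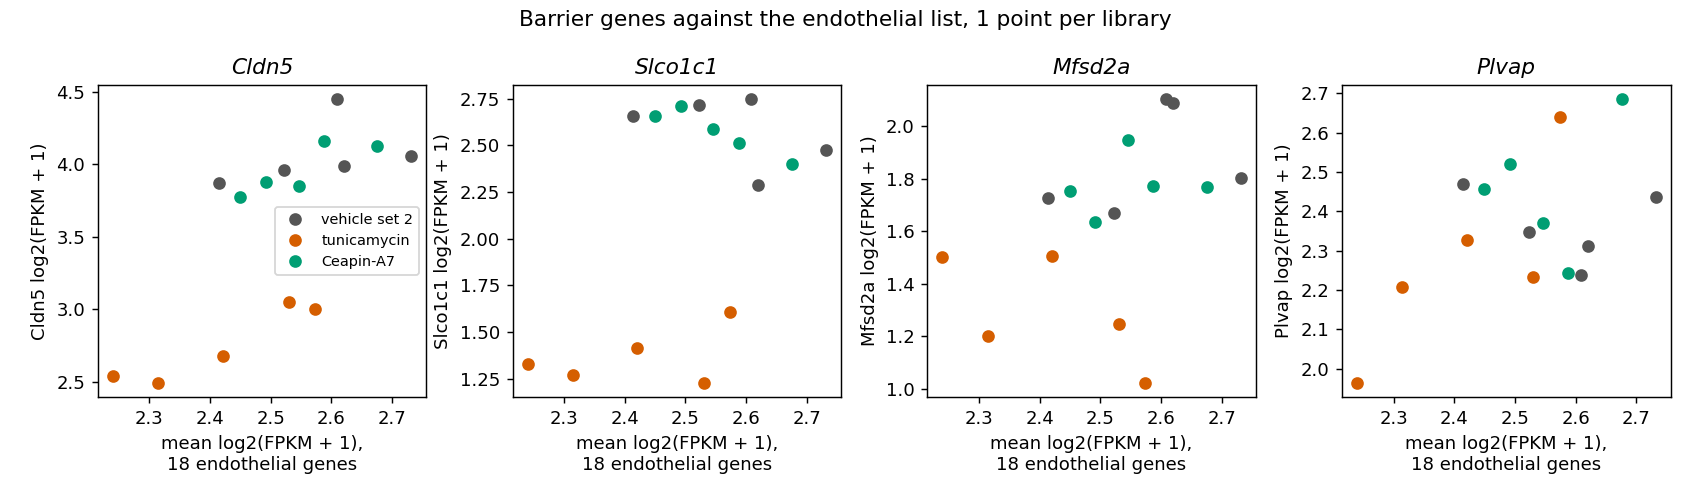
Level of Cldn5, Slco1c1, Mfsd2a and Plvap as log2(FPKM + 1) plotted against the mean log2 level of the endothelial marker list, one point per library for tunicamycin, Ceapin-A7 and vehicle set 2 (15 libraries). The tunicamycin libraries lie below all others for Cldn5, Slco1c1 and Mfsd2a, also those whose list mean is within the range of the other groups, and for Plvap they overlap the others.

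Markers of pericytes and pigment epithelium fell alongside, while none of the 8 Müller glia and astrocyte genes was called (median change -0.13). Pericyte and smooth muscle genes fell at 5 of 9 tested and rose at none (none of the 12 listed was at 0 in any library), with a summed level of 14.5 to 21.5 FPKM against 33.9 to 46.3 FPKM. With this list mean as a covariate, Lsr lost its call (-0.39, adjusted p = 0.0918) and the other 4 members kept theirs. Pigment epithelium genes fell at 7 of 11 tested, with a summed level of 27.0 to 97.6 FPKM against 130 to 272 FPKM. None of its 12 markers was at 0 in these groups. Rpe65, the retinoid isomerase of that layer, stood at 1.48 ± 0.846 FPKM against 8.05 ± 4.73 FPKM. With that list mean as a covariate all 5 members kept their calls. The pericyte and pigment epithelium list means of the tunicamycin libraries lay below those of every vehicle set 2 and Ceapin-A7 library. Fits with either list mean therefore cannot fully separate the level of these cell markers from tunicamycin. Calls kept or lost in them do not show whether the members fell independently of those cells. The covariates were chosen after the data had been seen. Lens genes, at 2.98 to 12192 FPKM summed with tunicamycin and 5.92 to 4509 FPKM in vehicle set 2, had no called gene, and with the lens list mean as a covariate all 5 members kept their calls.

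Most genes of the wider barrier lists were not called. Of 19 tested junction partners, 2 rose, 1 fell and 16 were not called with tunicamycin, with a median of -0.04. Cdh5, the gene of VE-cadherin, rose from 2.18 to 3.45 FPKM (0.48 ± 0.10, SE) and Cldn12, another claudin, rose by 0.17, while the junction adhesion molecule Esam fell to 8.38 FPKM (-0.36 ± 0.05). Cdh5 and Esam are also in the endothelial marker list. Tjp1, the gene of the scaffold ZO-1, differed by -0.04 and was not called. Of 19 tested transporters and receptors, 2 rose, 3 fell and 14 were not called. The amino acid transporter chain Slc3a2 rose from 90.9 ± 20.7 to 192 ± 113 FPKM (0.93), with a wide spread, the glutamine transporter Slc38a5 fell from 1.23 to 0.358 FPKM (-0.70), and the organic anion transporter Slco2b1 fell from 1.94 to 0.870 FPKM (-0.64). Abcb1b was too low to test, at 0.386 and 0.50 FPKM. None of the 11 caveola and transcytosis genes was called, and Cav1, which scaffolds caveolae, differed by -0.17.

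In the Norrin and Wnt list 1 of 21 tested genes rose, 3 fell and 17 were not called, with a median of -0.08. The endothelial transcription factors Sox17 and Sox18 fell, Sox17 from 1.13 to 0.506 FPKM (-0.50) and Sox18 by -0.42. Apcdd1, a Wnt target and inhibitor, fell from 12.3 to 9.33 FPKM (-0.37), and the forkhead factor Foxf2 of pericytes rose by 0.25. The ligand gene Ndp differed by -0.33 (adjusted p = 0.198) and its receptor gene Fzd4 by 0.06, neither called. With AA147 and Ceapin-A7 no gene of any of these lists was called against its vehicle set.

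Against Ceapin-A7, the tunicamycin libraries gave 5 transporter and receptor genes higher and 4 lower of 19. The cationic amino acid transporter Slc7a1 was higher by 1.403, the large neutral amino acid transporter Slc7a5 by 1.25 and Slc3a2, the heavy chain that pairs with Slc7a5, by 1.15, while Slco2b1 differed by -0.57. In the Norrin and Wnt list 5 of 21 were lower and 1 higher, led by Sox17 (-0.69), Sox18 (-0.46), Apcdd1 (-0.34) and Tnfrsf19 (-0.28). Of 11 caveola and transcytosis genes, Cltc (0.17) and Dnm2 (0.15) were higher and the caveola coat gene Cavin2 (-0.41) was lower. Pericyte genes were lower at 5 of 9, and endothelial markers were lower at 7 and higher at 5 of 18. Pigment epithelium genes were lower at 2 of 11 and higher at none.

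**Figure D4:**
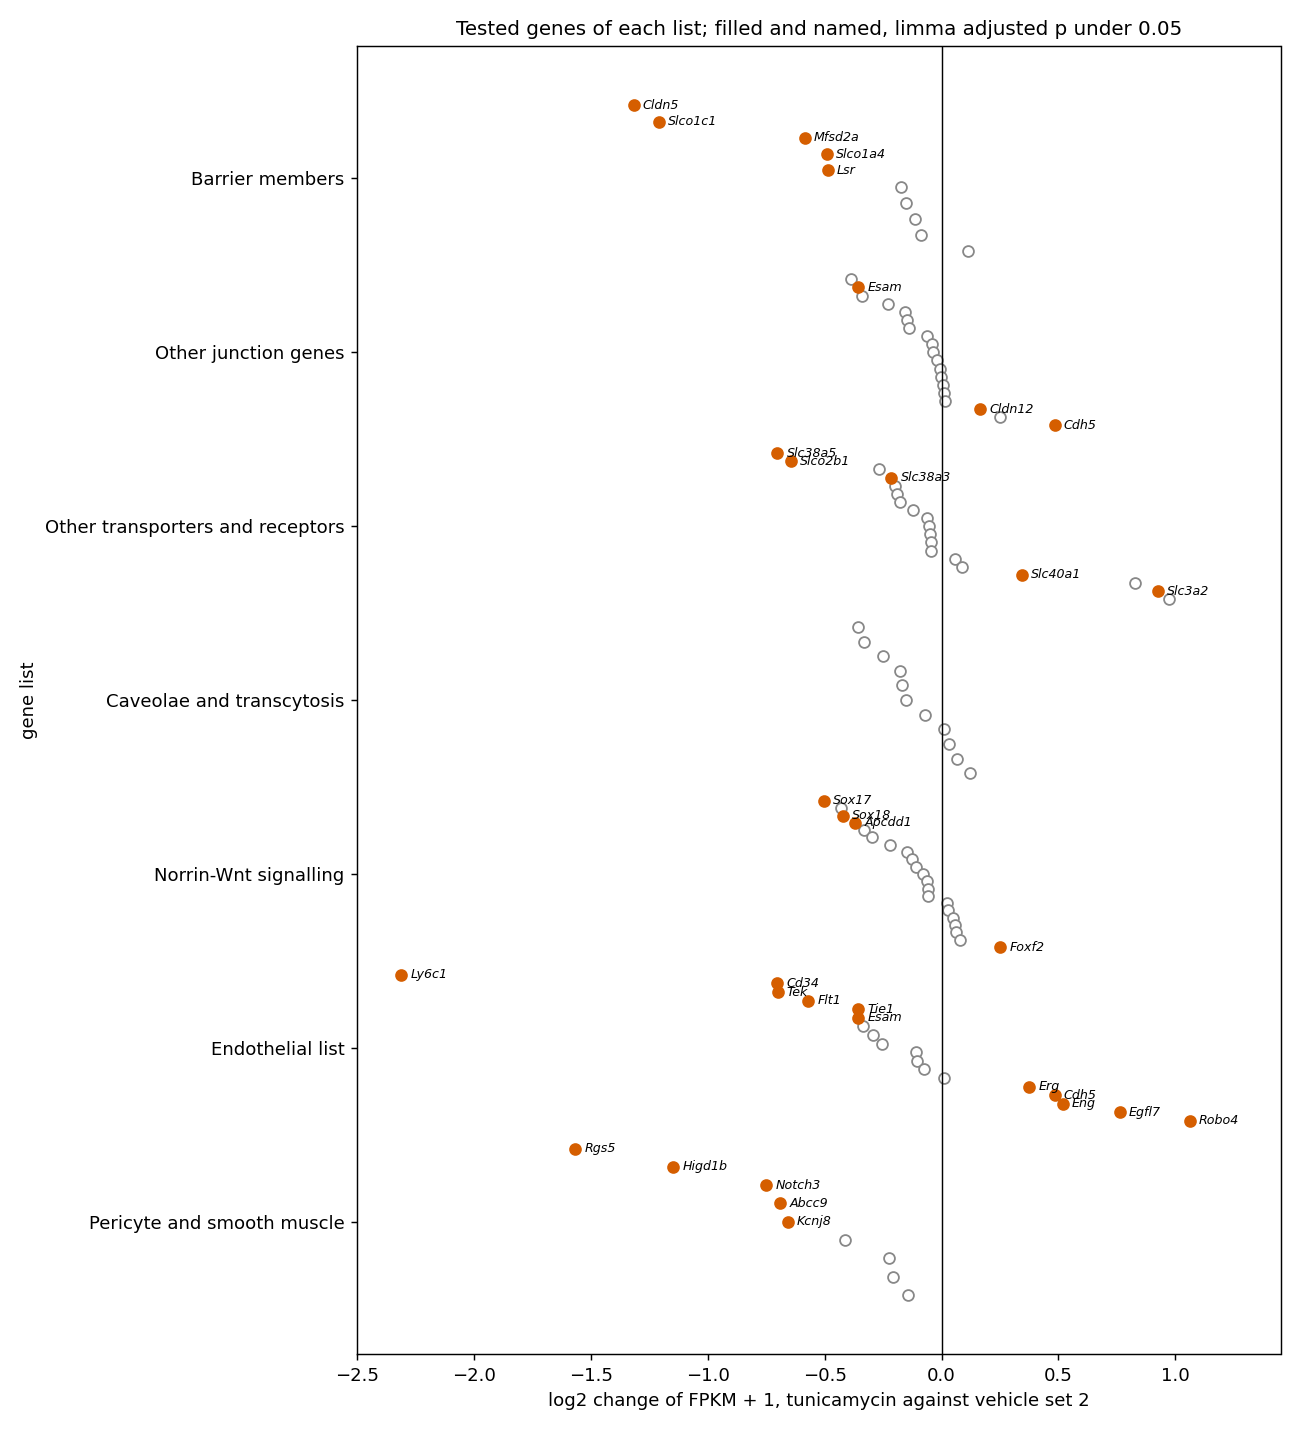
Log2 change with tunicamycin against vehicle set 2 of each gene in the barrier, junction, transporter, caveola, Norrin and Wnt, endothelial and pericyte lists; filled points were called. Called genes lie on both sides of 0 in the endothelial list and below 0 in the pericyte list.

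Over these 15 libraries (tunicamycin, Ceapin-A7 and vehicle set 2) the lowered members were correlated, given as a description with no test because the points share treatment groups. Cldn5 and Slco1c1 had a Pearson r of 0.92 on log2(FPKM + 1), and Slco1a4 and Slco1c1 an r of 0.91. The genes most like Cldn5 were Rgs5, a pericyte marker, with r = 0.97, then Ly6a and Ly6c1, each with 0.97. For Slco1c1 they were Rgs5 (0.96), the lipid transfer gene Pltp (0.96) and Casq2 (0.95), and for Slco1a4 they were Pltp (0.92), Srarp (0.92) and Ly6a (0.92). For Lsr they were Slc38a5 (0.93), Arf3 (0.90) and Chd4 (0.90), and for Mfsd2a they were Afap1l2 (0.89), St6gal1 (0.87) and Abcc9 (0.85).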

How the data were processed

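Bulk RNA-seq libraries of mouse retina were analysed from FPKM tables the authors deposited, 1 per group. The genome build GRCm39 and the tools RSEM 1.2.18, DESeq2 1.4.5 and HISAT2 2.0.4 are listed in the submitters' processing notes without a role or order. Groups came from GEO's labels, and 0 sample columns were left out. The 5 tables hold 18440 shared genes, and 236 and 662 genes are listed only with vehicle set 1 or only with vehicle set 2. Whole reads could not be recovered from the FPKM steps.

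Here log2(FPKM + 1) of the 25 libraries was fitted with limma 3.58.1 (R 4.3.3, 5 groups, trended variance) for the 13117 genes at 1 FPKM or more in at least 5 libraries. P-values were adjusted by Benjamini-Hochberg over all of them per comparison and called under 0.05. The fit was tested on simulated data for tunicamycin against vehicle set 2, over 13067 genes. It recovered 98 of 100 genes changed by log2 1 and 88 of 100 changed by 0.5, with 9 false calls. Simulated noise was independent between libraries, with the same spread per gene in every group, so error in the real libraries may differ. All members are named. From each other list up to 4 called genes with the largest changes, and Tjp1, Cdh5, Cav1, Fzd4, Ndp and Abcb1b, were to be named, and the 3 genes most correlated with each lowered member. Cell markers (endothelial, pericyte, pigment epithelium, lens, erythrocyte, Müller glia and astrocyte, microglia and leukocyte, neurons, Y-linked) were also listed. Erythrocyte, glial and microglial lists had no called gene in the 3 vehicle comparisons. The members and lists were chosen with earlier results of these data known. Same replicate numbers did not pair the libraries. Alternatives covered scaling, pseudocount, filter, vehicle set, replicate block, covariates and leaving out libraries.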

Additional observations from a re-analysis of the deposited data

Results flagged for a closer look

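In 5 of 50 member and group combinations, 1 library stood further from the rest than Dixon's 95% criterion for 5 samples allows, a criterion that chance exceeds in about 1 in 20 groups. Cldn5 had a highest value of 20.88 FPKM in vehicle set 2, where the next was 15.65 FPKM. Ocln had a highest value of 2.04 FPKM with Ceapin-A7, where the next was 1.55 FPKM. Mfsd2a had a highest value of 2.5 FPKM in vehicle set 1 (next 2.09 FPKM) and of 2.67 FPKM with AA147 (next 2.34 FPKM). Slco1a4 had a lowest value of 6.75 FPKM with Ceapin-A7, where the next was 7.6 FPKM. Tunicamycin libraries were not among these, and the fall of Cldn5 was called without any single library of vehicle set 2.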

How the results depend on the processing

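For tunicamycin against vehicle set 2, Cldn5, Slco1c1 and Slco1a4 stayed called lower in all 29 alternatives, Mfsd2a in 28 and Lsr in 27. The falls were smaller against vehicle set 1: -1.23 for Cldn5, -0.86 for Slco1c1, -0.33 for Mfsd2a, -0.27 for Slco1a4 and -0.16 for Lsr. With the replicate block 5 members were still called; same-numbered libraries correlated between -0.43 and 0.47, so the numbers do not pair them. The genes called overall numbered 1141, and 7381 against the other vehicle set, 5743 against both, 86 with only the groups compared, 389 with only tables of the same gene list, 442 with the Y-linked, 474 with the pigment epithelium, 308 with the endothelial and 260 with the pericyte covariate; leaving out a library gave 611 (without tunicamycin 1) to 1985 (without tunicamycin 3), and members 5. For AA147, the other vehicle set gave 5 lower members and 6016 genes, both sets 2948 genes and the Y-linked covariate 1; leave-one-out gave 0 to 1. There Slco1a4 was -0.21 (adjusted p = 0.012), Slco1c1 -0.34 and Plvap -0.36, reversed in sign. For Ceapin-A7 the other set gave 3 higher members, with Slco1c1 reversed to 0.35, and 6676 genes, both sets 4384 and the pigment epithelium covariate 2; leave-one-out gave 0 to 14 (14 without vehicle set 2 library 2). Tunicamycin against Ceapin-A7 gave 1746 genes, and 613 with only those groups and 703 with the same gene list. The pigment epithelium, endothelial and pericyte covariates gave 352, 941 and 111 genes. Leaving out a library gave 925 to 2874 genes (tunicamycin 1 and 3) and 4 to 5 members. Members were 2 with the pericyte covariate, and Lsr joined the 5 called members after quantile normalization and with the Y-linked covariate. Tunicamycin against AA147 gave 136 genes and 4 members, and 61 genes and 2 members with the pericyte covariate; the gene count was 77 with only those groups, 427 with sample weights, 61 with the Y-linked and 84 with the endothelial covariate, and 89 (without AA147 3) to 637 (without tunicamycin 3) leaving out a library, with 4 to 5 members. Vehicle set 2 against set 1 gave 6145 genes and 6 members, 5721 to 6555 genes and 5 to 7 members leaving out a library, and 5814 genes and 3 members without libraries 4 and 5 of set 2. The cause of these shifts was not tested. Scaling moved the median change of all genes by at most 0.02. The counting error estimated at the median depth was largest for Mfsd2a, at 9.08% in vehicle set 2 and 12.3% with tunicamycin.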
